A study of Mus musculus with 15 samples.

Results

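Nuclear receptors are transcription factors that bind DNA through a zinc finger domain and whose activity in most members depends on a small lipophilic ligand such as a steroid, a retinoid, thyroid hormone or an oxysterol. Retinoic acid, thyroid hormone and vitamin D receptors, PPARs and LXRs bind DNA with a retinoid X receptor (RXR) as partner, whereas steroid receptors mostly act as homodimers, and orphan receptors have no established natural ligand. In the brain the family carries hormonal and metabolic signals into gene expression, and the receptors REV-ERB alpha and beta, which repress transcription, belong to the circadian clock itself. Described here are 31 genes of this family, chosen by name from the 24419 genes counted. The REV-ERB and ROR receptors, Thra and the NR4A receptors were left out by that choice, and no measured value entered it.

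RNA was sequenced from punches of the suprachiasmatic nuclei (SCN), the hypothalamic site of the central circadian pacemaker, of C57BL/6 mice 8 to 12 weeks old. The mice either lacked both REV-ERB receptors (double knockout, DKO) or were controls, and neither the alleles nor a Cre driver nor the sex is given in the sources used here. Punches were collected at circadian time (CT) 4 h, in the subjective day, or 16 h, in the subjective night, and 2 to 4 were pooled per library. At CT4 each genotype had 3 libraries, and at CT16 the controls had 5 and the DKO mice 4, with 32580803 to 68757624 counts each. Which mice were pooled is not stated, so a p-value reflects only how far pools differed, which may be technical in part. A set of 16 SCN marker genes was present in every library, at a summed level of 687 to 1533 CPM (counts scaled to a common library size). In control it was 1271 to 1398 CPM at CT4 and 687 to 1352 CPM at CT16, and in DKO 1000 to 1047 CPM and 931 to 1533 CPM. Punches also held transcripts of neighbouring nuclei in amounts that differed between libraries, and amounts are given beside the receptors with the widest spread. In tissue RNA, fewer cells of a type and less RNA per cell cannot be told apart.

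All 31 receptors had enough counts to be tested, and 24 reached a median of at least 1 RPKM (CPM per kilobase of exon) over the 15 libraries. That is 77.4% of the receptors, beside 79.9% of the 16910 tested genes. RPKM allows levels of different genes to be compared, and all levels in this paragraph and the next are medians on that scale. The most abundant was Nr1h2, which encodes the oxysterol receptor LXR beta, at 24.4. The RXR partners Rxrb and Rxra followed at 21.9 and 17.4, ahead of the glucocorticoid receptor gene Nr3c1 at 16.3. Next came the orphan receptor genes Nr2f2 at 13.5 (COUP-TFII), Esrra at 11.5 (estrogen-related receptor alpha), Nr2c2 at 10.6 (TR4) and Nr2f1 at 10.3 (COUP-TFI), and with these the count above 10 was 8. An antisense gene, Mrps25, covers 46.4% of the exonic bases of Nr2c2, and without a stated strand setting reads of these genes cannot be told apart, so the level of Nr2c2 is uncertain.

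Middle levels belonged to Nr2f6 at 9.52, Rxrg at 8.50, Ppard at 7.29, the progesterone receptor gene Pgr at 6.19, the thyroid hormone receptor gene Thrb at 5.90, Nr5a1 at 5.59 (steroidogenic factor 1) and the mineralocorticoid receptor gene Nr3c2 at 5.54. Lower values were those of Nr2c1 at 3.69, Rarg at 3.10, Esrrg at 2.86, Nr2e1 at 2.43 (TLX), Nr1h3 at 2.22 (LXR alpha), Rara at 2.05, Rarb at 1.99, the estrogen receptor gene Esr1 at 1.82 and Nr6a1 at 1.74. Below 1 RPKM lay Ppara at 0.821, Nr5a2 at 0.619, Nr0b1 at 0.587 (DAX1), the vitamin D receptor gene Vdr at 0.490, Esr2 at 0.483, Pparg at 0.274 and Esrrb at 0.232. Nr6a1 and Ppara were thus the nearest to the threshold on its 2 sides. The receptors also differed in how steady they were. Of the 24 above 1 RPKM, 20 varied less than 2-fold over the 15 libraries, and the others were Pgr (2.17-fold), Rxrg (3.07-fold), Esr1 (4.49-fold) and Nr5a1 (22.1-fold). Among the 7 lower ones only Ppara varied less than 2-fold, at 1.58-fold.

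**Figure D1:**
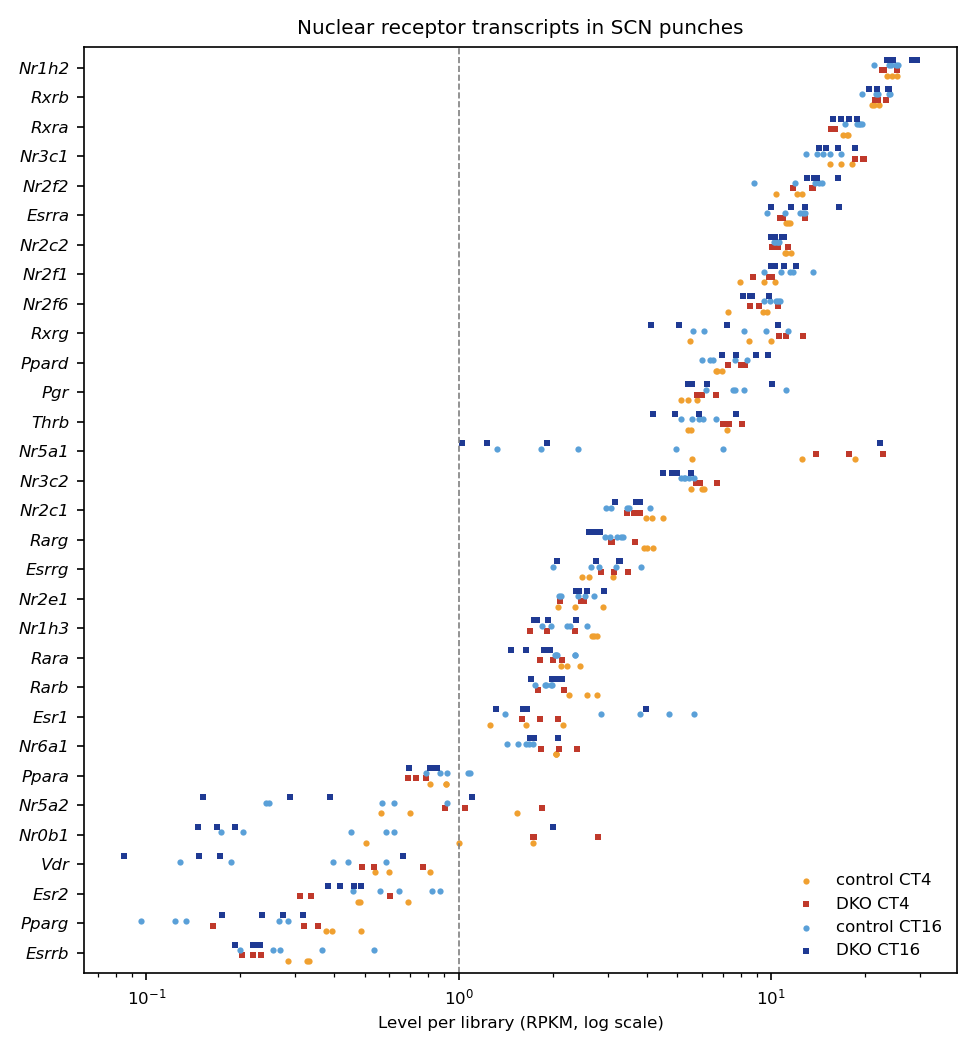
RPKM of the 31 receptor genes in each of 15 libraries, on a log axis, ordered by median, with colour and shape for the group and a dashed line at 1 RPKM. The points of Nr1h2, Rxrb and Rxra sit close together at the upper end, while those of Nr5a1 spread over 22.1-fold.

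The retinoic acid receptors were the only receptors with a called difference. Rarb and Rarg, which encode receptors beta and gamma for all-trans retinoic acid, fell from CT4 to CT16 in control SCN, by factors of 1.34 and 1.28. Both are on minus strands, Rarb at chr14:16430840-17082331 and Rarg at chr15:102234938-102257522 (mm10). Their promoters are shown because the best known property of Rarb is that its promoter carries a retinoic acid response element. Retinoic acid itself was not measured here, and its part in the fall of Rarb and Rarg was not tested. The sequences are from RefSeq (GRCm38.p6) and hold the 250 bases before a transcription start, read 5′ to 3′ on the gene's strand. Capitals mark the response element in Rarb and, in Rarg, a receptor binding hexamer on the opposite strand. For Rarg the first of 2 listed starts is shown.
Rarb promoter, chr14:16575477-16575726, minus strand: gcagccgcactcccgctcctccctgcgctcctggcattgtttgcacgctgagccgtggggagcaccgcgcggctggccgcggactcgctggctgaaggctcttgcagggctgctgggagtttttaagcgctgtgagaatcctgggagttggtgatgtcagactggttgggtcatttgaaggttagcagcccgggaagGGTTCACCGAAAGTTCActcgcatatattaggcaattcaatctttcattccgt
Rarg promoter, chr15:102257523-102257772, minus strand: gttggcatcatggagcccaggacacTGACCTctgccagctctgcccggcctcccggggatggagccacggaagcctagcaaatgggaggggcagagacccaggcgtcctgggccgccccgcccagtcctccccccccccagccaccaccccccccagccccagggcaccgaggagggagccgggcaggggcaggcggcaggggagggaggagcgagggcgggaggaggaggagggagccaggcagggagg

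The motif searched, GGTTCA followed after any 5 bases by AGTTCA, was found on either strand in 2 of 32851 promoters of 300 bases (250 before and 50 after the start), or 0.00609%. Among the 48 promoters listed for 29 of the receptors, Rarb alone held it, as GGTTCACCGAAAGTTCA, 53 to 37 bases before the start. No entry was found for Nr3c1 and Nr5a1. The single hexamer AGGTCA was in 16.3% of all promoters and in 10 of the 48. TAGGTCA, which includes AGGTCA, is that hexamer with only the nearest of the flanking bases that favour REV-ERB and ROR binding. This string was in 2.61% of all promoters and in 0 of the 48, and longer forms with more flanking bases were not searched. The E-box CACGTG, bound by clock activators, was in 7.15% of all promoters and in those of Esr2, Rara and Thrb. A match is a description of letters, not a site shown to be bound. The counted span of Rarb extends upstream of the start shown, so the counts also include exons of longer transcripts.

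In control libraries at CT4, Rarg stood at 13.4, 13.7 and 14.3 CPM. The CT16 controls had 10.0, 11.3, 10.9, 10.3 and 11.4 CPM. All 3 day libraries thus lay above all 5 night libraries, with means of 13.8 ± 0.47 and 10.8 ± 0.58 CPM (SD, n = 3 and 5). The log2 difference was -0.35 ± 0.08 (SE), with an adjusted p of 0.0216 in edgeR's quasi-likelihood test.

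Rarb had 9.74, 10.5 and 8.53 CPM at CT4 in control. At CT16 the controls had 7.17, 7.48, 7.48, 7.14 and 6.61 CPM. Here too no night library reached the lowest day library, and the means were 9.58 ± 0.97 and 7.17 ± 0.36 CPM (SD, n = 3 and 5). The log2 difference was -0.42 ± 0.10 (SE, adjusted p = 0.0335 in edgeR's quasi-likelihood test). These were 2 of 31 receptors called, both lower at CT16, against 4.21% of all tested genes called, 2.08% lower and 2.13% higher. At an unadjusted p under 0.05 there were 12 receptors, beside 19.9% of all genes. Both calls depended on single libraries. Rarb stayed called in 9 of 17 other settings and Rarg in 11 of 17. Without control CT4 replicate 1, control CT4 replicate 2 or control CT16 replicate 4, neither passed, at adjusted p of 0.0515 to 0.163. Rarb was also lost without control CT16 replicate 1, 3 or 5, and Rarg without control CT4 replicate 3. Both were lost without control CT4 replicate 1 and DKO CT16 replicates 3 and 4, at edgeR adjusted p of 0.088 and 0.0521. These 3 libraries were chosen for their tissue content with earlier results known, not by a fixed rule. Others also stood out. Control CT16 replicate 5 had 496 CPM of summed arcuate nucleus markers, beside 157 to 237 CPM in the other CT16 controls.

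DKO libraries at CT4 had less Rarg than controls, at 10.5, 10.4 and 12.5 CPM, and at CT16 they had 9.07, 8.90, 9.66 and 9.51 CPM. Genotype groups did not overlap at either time. The log2 difference between DKO and control was -0.30 ± 0.09 at CT4 (adjusted p = 0.12) and -0.22 ± 0.07 at CT16 (adjusted p = 0.116), so neither passed the test in edgeR. DESeq2 and voom called the CT4 difference, at adjusted p of 0.0478 and 0.0328, and not that at CT16. In DKO the night value was again below every day value, with a log2 difference of -0.26 ± 0.09 (edgeR adjusted p = 0.121).

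Rarb in DKO was at 8.20, 6.80 and 8.22 CPM at CT4 and at 6.44, 7.53, 8.09 and 7.88 CPM at CT16. The times overlapped, and the log2 difference was -0.05 ± 0.11 (edgeR adjusted p = 0.852). Every DKO library at CT4 was below every control library at CT4, at a log2 difference of -0.31 ± 0.12 (edgeR adjusted p = 0.224). Whether the time difference itself differed between genotypes was tested by the interaction, which was 0.37 ± 0.15 for Rarb and 0.09 ± 0.12 for Rarg on the log2 scale. Neither passed, at adjusted p of 0.272 and 0.736 in edgeR.

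Rara, the gene of retinoic acid receptor alpha at chr11:98937696-98974942 on the plus strand, was at 8.47, 8.39, 8.50, 9.76 and 9.73 CPM in control at CT16. DKO libraries at that time had 7.73, 6.80, 8.11 and 6.07 CPM, all below the controls. The log2 difference of -0.32 ± 0.10 was the receptor change with the smallest adjusted p of that comparison, 0.0827 in edgeR, and it passed without DKO CT16 replicate 3 (adjusted p = 0.0442). At CT4 the genotypes overlapped, with 10.1, 8.75 and 9.20 CPM in control and 7.52, 8.28 and 8.82 CPM in DKO.

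**Figure D2:**
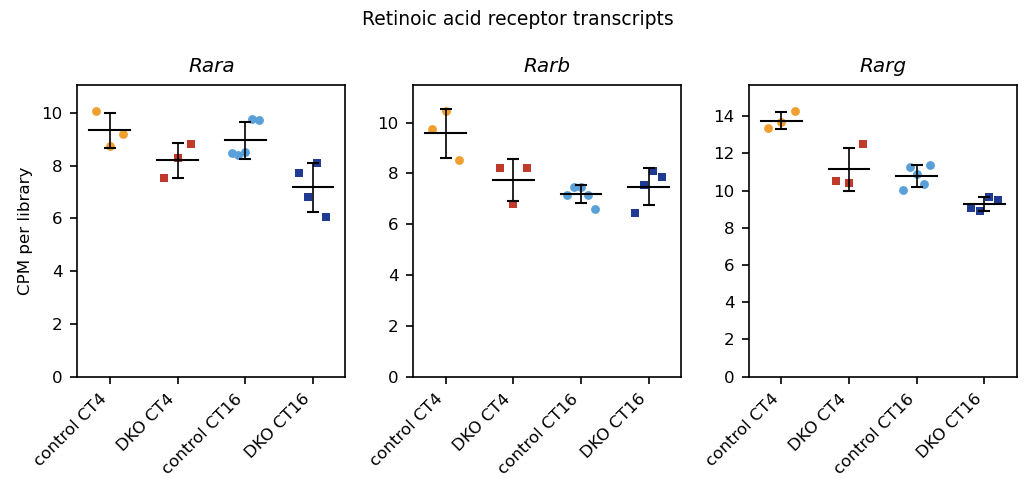
CPM of Rara, Rarb and Rarg in each library by group, with black bars for the mean ± SD and axes that start at 0. Control CT4 libraries of Rarb and Rarg lie above every control CT16 library, and DKO libraries of Rarg lie below the controls of the same time.

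Retinoid-handling genes and retinoic acid receptor targets were examined beside the receptors. None of 10 retinoic acid receptor targets was called in any of the 5 comparisons. Of 15 genes for retinoid synthesis, transport and breakdown, 1 rose and 1 fell in DKO at CT16, beside 2.83% and 1.83% of all genes. None was called otherwise. The rise was that of Aldh1a2, a retinaldehyde dehydrogenase that makes retinoic acid, from a mean of 3.11 ± 1.48 to 16.5 ± 7.29 CPM (SD, n = 5 and 4). Its log2 difference was 2.40 ± 0.34 (SE, adjusted p = 0.00114 in edgeR). Leptomeningeal cells are known to express Aldh1a2. The 13 other mural and leptomeningeal markers summed to 109 to 126 CPM in control and 113 to 119 CPM in DKO at that time. The part of these cells in the Aldh1a2 rise was not tested. The fall was that of Dhrs9, a retinol dehydrogenase near the limit of detection, at 0.132 to 0.962 CPM in control and 0 to 0.148 CPM in DKO. The call of Dhrs9 was lost when these 3 libraries were left out.

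Some vascular, microglial and SCN markers were also called lower at CT16 in control, and most were not called. Beside them, 2.08% of all genes were called lower and 2.13% higher. Of 12 microglial markers, Cx3cr1, P2ry12 and Siglech were lower at CT16, and the summed level was 376 to 447 CPM at CT4 and 311 to 361 CPM at CT16, without overlap. Of 12 endothelial markers, Cldn5 and Kdr were lower and Ly6c1 higher, at sums of 215 to 243 and 176 to 217 CPM. Among 14 mural and leptomeningeal markers Pdgfrb was lower, at sums of 130 to 144 and 111 to 129 CPM. Of the 16 SCN markers, Six6, Rgs16 and Rasl11b were lower at CT16, and the sums given above overlapped between times in control, while at CT4 every DKO library was below every control. None of these markers was at 0 in any library. Their part in the difference of Rarb and Rarg was not tested.

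The other receptors that pair with RXR, and the RXRs themselves, gave no call. Rxra was slightly lower in every DKO library at CT4 (85.0 to 87.5 CPM) than in every control library (92.9 to 96.4 CPM), at a log2 difference of -0.14 ± 0.06. Rxrg was higher in DKO at CT4, at 26.4, 25.1 and 29.9 CPM against 23.7, 13.0 and 20.1 CPM, with a log2 difference of 0.52 ± 0.35. In DKO, Rxrg was lower at CT16 than at CT4 in all libraries, with 17.1, 9.76, 25.0 and 12.0 CPM at night, the third of these falling just short of the lowest day value. None of these passed in edgeR, at adjusted p of 0.235 to 0.531.

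Thrb, the gene of thyroid hormone receptor beta, had 47.3, 35.4 and 36.3 CPM in control at CT4 and 48.2, 45.9 and 53.1 CPM in DKO. At CT16 control libraries ran from 33.9 to 43.8 CPM and DKO libraries were at 38.7, 32.4, 50.5 and 27.5 CPM. Groups overlapped in both genotype comparisons. The first control library at CT4 and the third DKO library at CT16 were the highest of their groups, and without the 3 libraries named above the log2 difference at CT4 was 0.45 and was called (edgeR adjusted p = 0.0253). With all libraries it was 0.31 ± 0.18 and was not. The summed level of 8 lateral hypothalamic markers was 437, 238 and 325 CPM in control and 446 to 575 CPM in DKO at CT4. It was 254 to 344 CPM in control and 268, 231, 610 and 199 CPM in DKO at CT16, in the same order over these 4 libraries as Thrb. The third of them was also the highest of its group in Rxrg and Nr3c1. Bdnf, higher at CT16 in control, was the 1 marker called, and none was at 0. The part of this tissue in the Thrb, Rxrg and Nr3c1 values was not tested. Of 9 thyroid hormone receptor targets, Klf9, a transcription factor also induced by glucocorticoids, was higher in DKO at both times, by 0.51 ± 0.11 at CT4 and 0.49 ± 0.09 at CT16 on the log2 scale. Of all genes, 0.574% were called higher in DKO at CT4 and 2.83% at CT16. The CT16 call of Klf9 was lost without the 3 libraries. Klf9 rose from CT4 to CT16 in control by 0.70 ± 0.10 and in DKO by 0.67 ± 0.10. Hr, a corepressor that binds thyroid hormone receptors, rose in control by 1.16 ± 0.20. Over time 2.13% of all genes were called higher in control and 1.29% in DKO. None of 7 genes for thyroid hormone transport and deiodination was called in any comparison.

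Lipid and sterol sensors showed small differences that did not pass. Nr1h3 was below every control library in all DKO libraries at CT4, with 3.91, 4.80 and 3.45 CPM against 5.42, 5.51 and 5.63 CPM. Its log2 difference was -0.44 ± 0.16 (edgeR adjusted p = 0.21). The fatty acid sensors Ppara and Pparg were likewise lower without overlap at CT4, with log2 differences of -0.26 ± 0.14 and -0.59 ± 0.42, and Ppard was higher, at 0.21 ± 0.13. Nr1h2, the more abundant LXR gene, varied less than 2-fold over all libraries. Between times in control, Pparg was at 0.914, 1.13 and 0.870 CPM at CT4 and 0.224 to 0.659 CPM at CT16. These groups did not overlap, and the log2 difference of -1.20 ± 0.37 had an adjusted p of 0.0807 in edgeR.

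PPAR targets were called in both genotype comparisons, where 2.83% of all genes were called higher in DKO at CT16 and 0.574% at CT4. Of 15, 3 rose at CT16 in DKO, namely the brain fatty acid binding protein gene Fabp7 by 3.76 ± 0.16, the acyl-CoA thioesterase gene Acot1 by 0.76 ± 0.14 and the lipase inhibitor gene Angptl4 by 0.59 ± 0.16 on the log2 scale. Without the 3 libraries 1 of them was called. At CT4 Fabp7 alone rose, by 1.30 ± 0.18, and 11 of the 15 had negative log2 differences. Fabp7 was also the single list gene called in the interaction (2.46 ± 0.24). In control Fabp7 and Ehhadh, an enzyme of peroxisomal fatty acid oxidation, fell from CT4 to CT16, beside 2.08% of all genes called lower. Their log2 differences were -2.07 ± 0.16 and -0.46 ± 0.12, and without the 3 libraries 1 of the 15 was called. Of 12 LXR targets, Lpcat3, which remodels phospholipids, and Smpdl3a fell from CT4 to CT16 in control, with log2 differences of -0.39 ± 0.10 and -0.43 ± 0.10, and none was called between genotypes. Fabp7 is also known as a target of REV-ERB.

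Among steroid receptors, Nr3c1 was abundant and nearly level. Controls had 115, 97.5 and 106 CPM at CT4, and DKO libraries had 125, 117 and 126 CPM, above every control. At CT16 the ranges were 82.0 to 106 CPM in control and 90.3 to 117 CPM in DKO, and they overlapped. The genotype difference at CT4 was 0.21 ± 0.10 on the log2 scale (edgeR adjusted p = 0.338). From CT4 to CT16 Nr3c1 differed by -0.19 ± 0.09 in control and by -0.27 ± 0.09 in DKO (edgeR adjusted p = 0.25 and 0.131). Nr3c2, whose product also binds corticosterone, had 24.2, 27.5 and 23.5 CPM at CT4 in DKO and 18.4, 20.4, 22.7 and 19.8 CPM at CT16. Each night value was below each day value, and the log2 difference of -0.30 ± 0.08 had the smallest adjusted p of that comparison among receptors, 0.0545 in edgeR.

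Genes that these receptors are known to induce were higher at night in both genotypes. Of 14 glucocorticoid and mineralocorticoid receptor targets, 9 rose and none fell from CT4 to CT16 in control, at a median log2 difference of 0.99 beside -0.01 over all genes, of which 2.13% were called higher. In DKO 10 rose and none fell, at a median of 1.21 beside 0.01 over all genes, of which 1.29% were called higher. The smallest p-values in control were those of Tsc22d3, Cdkn1a, Nfkbia and Ddit4, with log2 differences of 1.75 ± 0.08, 1.72 ± 0.15, 1.5 ± 0.17 and 0.92 ± 0.13. In DKO the same 4 genes rose by 1.5 ± 0.08, 1.97 ± 0.15, 1.26 ± 0.18 and 1.16 ± 0.14. None of the 14 was called in the interaction.

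Between genotypes, Tsc22d3 (the glucocorticoid-induced leucine zipper) and Cdkn1a (the cell cycle inhibitor p21) were higher in DKO at both times. Tsc22d3 averaged 56.5 ± 4.14 CPM in control and 93.4 ± 9.04 CPM in DKO at CT4 (SD, n = 3 each), and 190 ± 12.9 and 265 ± 20.1 CPM at CT16 (SD, n = 5 and 4). Cdkn1a averaged 7.54 and 19.9 CPM at CT4 and 24.8 and 78.1 CPM at CT16. Mt2 and Ddit4 were also higher in DKO at CT16, by 0.82 ± 0.12 and 0.49 ± 0.12, which made 4 of 14 at CT16 (2.83% of all genes) and 2 of 14 at CT4 (0.574%). Without the 3 libraries 3 were called at CT16. Of 9 receptor chaperones, Stip1, Fkbp4 and Hsp90ab1, which help fold the glucocorticoid receptor, had log2 differences of -0.36 ± 0.05, -0.33 ± 0.06 and -0.18 ± 0.04 between DKO and control at CT16. No other of the 9 was called, beside 1.83% of all genes called lower, and without the 3 libraries 2 were. In control 4 of the 9 rose from CT4 to CT16, beside 2.13% of all genes called higher. Among them were the feedback inhibitor Fkbp5 by 1.00 ± 0.18 (also on the target list) and Fkbp4 by 0.39 ± 0.06. In DKO Fkbp5 rose by 0.87 ± 0.18. Bag1, another cochaperone, was lower at CT16 in DKO with a log2 difference of -0.21 ± 0.05, a call lost without the 3 libraries. Over time in DKO 1.29% of all genes were called higher and 0.509% lower.

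Esr1 and Pgr, the genes of estrogen receptor alpha and the progesterone receptor, were the steroid receptors above 1 RPKM that varied more than 2-fold. In control, Esr1 was at 18.9, 11.0 and 14.4 CPM at CT4 and at 25.0, 12.4, 33.4, 41.4 and 49.5 CPM at CT16. All night libraries but the second were above every day library. DKO libraries had 18.3, 16 and 14.0 CPM at CT4 and 34.9, 11.5, 14.5 and 14.1 CPM at CT16, so that the first night library stood alone. The log2 difference over time in control was 1.13 ± 0.46 (edgeR adjusted p = 0.201), and between genotypes at CT16 it was -0.78 ± 0.41 (edgeR adjusted p = 0.315).

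Pgr, which estrogen receptor alpha induces, was at 39.9, 35.4 and 37.4 CPM at CT4 in control and at 52.0, 42.6, 52.7, 56.6 and 77.0 CPM at CT16. All night libraries were above all day libraries, and the log2 difference was 0.58 ± 0.21 (edgeR adjusted p = 0.153). DESeq2 and voom called it, at adjusted p of 0.0284 and 0.0301. DKO libraries had 46.0, 39.9 and 41.5 CPM at CT4 and 69.3, 37.4, 42.9 and 38.4 CPM at CT16, the first again standing alone. At CT16, libraries high in Esr1 were mostly also high in the genes Gal and Prlr. The neuropeptide gene Gal was at 55.4, 18.7, 48.5, 77.4 and 107 CPM in the CT16 controls and at 55.3, 8.07, 29.7 and 21.3 CPM in the CT16 DKO libraries, and Prlr, the prolactin receptor gene, was at 78.5, 51.5, 76.1, 98.6 and 133 CPM and at 95, 37.5, 44.5 and 47.7 CPM. Gal and Prlr were chosen after their values were seen, so their likeness to Esr1 is a description and no test.

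The summed level of 11 preoptic markers was 164 to 233 CPM in control and 226 to 269 CPM in DKO at CT4, and 199 to 446 CPM and 154 to 338 CPM at CT16. Of the 11, Hmx2 and Hmx3 were called higher at CT16 in control, and of the markers Kiss1 was at 0 in 1 library, control CT4 replicate 2. At CT16 between genotypes Calcr was called lower in DKO. Their part in the Esr1 and Pgr values was not tested. Esr2, at 1.04 to 2.92 CPM, was too low for small differences to be detectable. Its log2 difference between DKO and control at CT16 was -0.62 ± 0.24 (edgeR adjusted p = 0.152). Of 7 estrogen and progesterone receptor targets, Cckar and Xbp1 rose from CT4 to CT16 in control, by 0.71 ± 0.19 and 0.33 ± 0.07. Xbp1 was also lower in DKO at CT16 (-0.28 ± 0.06), a call lost without the 3 libraries. Of all genes, 2.13% were called higher over time in control and 1.83% lower in DKO at CT16. None of 13 genes for steroid and oxysterol synthesis was called in any comparison.

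**Figure D3:**
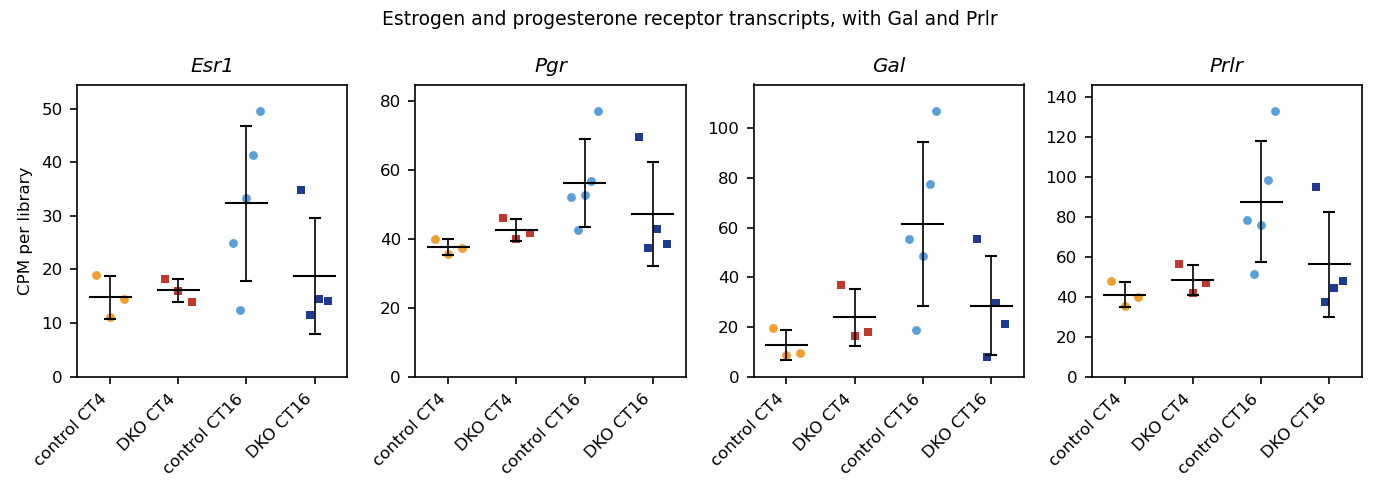
CPM of Esr1 and Pgr in each library by group, with black bars for the mean ± SD and axes that start at 0. Gal and Prlr, chosen after their values were seen, are shown beside them. The first DKO library at CT16 stands above the other DKO libraries at CT16 in all 4 panels, and the second CT16 control is the lowest CT16 control in each.

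Nr5a1, the defining transcription factor of the ventromedial hypothalamic nucleus at chr2:38692660-38714542 on the minus strand, was the least steady receptor. Control libraries had 54.7, 16.5 and 37.1 CPM at CT4 and 3.91, 20.7, 14.6, 5.41 and 7.09 CPM at CT16. DKO libraries had 41.1, 52.5 and 67.1 CPM at CT4 and 3.03, 3.63, 65.7 and 5.65 CPM at CT16. The groups overlapped in every comparison, and the third DKO library at CT16 was at the level of the day libraries. Its log2 difference between genotypes at CT16 was 0.92, and without that library it was -1.36, neither of them called. Over time in DKO the difference was -1.44 ± 0.99 with it and -3.72 without it, and the second value was called (edgeR adjusted p = 0.00966).

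Nr0b1, an orphan receptor that represses Nr5a1 activity, followed the same libraries, at 3.61 CPM in the third DKO library at CT16 and 0.262 to 0.346 CPM in the others of that group. Nr5a2, the closest relative of Nr5a1, had 4.25 CPM there beside 0.586 to 1.5 CPM. Vdr had 2.89 CPM there beside 0.368 to 0.749 CPM. These 4 genes were high in the same library of the group. The log2 difference of Nr0b1 over time in DKO was -1.68 ± 0.81 and was -3.62 without that library, and that of Vdr was -1.13 ± 0.60 and -2.15, the values without it being called (edgeR adjusted p = 0.0011 and 0.0115).

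Ventromedial markers were high in the same DKO library but did not follow Nr5a1 over time in control. The summed level of 9 markers without Nr5a1 was 306 to 473 CPM in control and 512 to 584 CPM in DKO at CT4, and 350 to 442 CPM in control at CT16, where the library highest in Nr5a1, the second, was at 366 CPM. In DKO at CT16 it was 365, 265, 585 and 227 CPM, highest in the third library. Fezf1, chosen after its values were seen, had 15.3, 16.7, 50.4 and 8.39 CPM in these 4 libraries. None of the 9 was called over time in control and none was at 0. The high values of the third DKO library at CT16 were not particular to ventromedial markers. It was also the highest of its group in summed arcuate, lateral hypothalamic, pituitary, and ependymal and tanycyte markers. Its pituitary sum was far above the others, though some pituitary markers were at 0 in every library. In control at CT16 the pituitary sum was highest in the fifth library, not in the second. The part of any of these tissues in the Nr5a1, Nr0b1, Nr5a2 and Vdr values was not tested. None of 3 vitamin D receptor targets was called in any comparison.

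**Figure D4:**
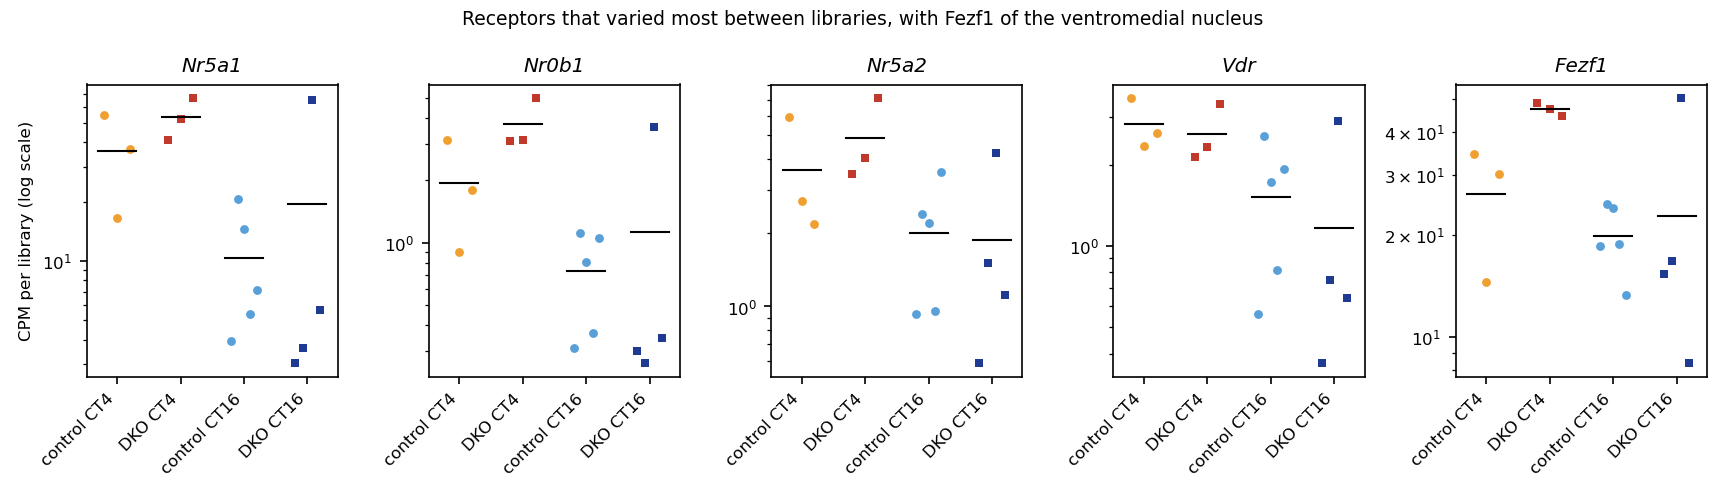
CPM of Nr5a1, Nr0b1, Nr5a2, Vdr and the ventromedial marker Fezf1 in each library by group, on log axes, with a line at the mean. In DKO at CT16 the third library lies far above the other 3 in each panel, at 65.7 CPM for Nr5a1 beside 3.03 to 5.65 CPM.

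The remaining orphan receptors gave no call in edgeR with all libraries. Nr2f1 and Nr2f2, developmental regulators of regional identity, Nr2f6, Nr2c1, Nr2c2 and Nr2e1 had log2 differences of -0.21 to 0.15 at CT4 and -0.21 to 0.18 at CT16 between genotypes. Nr2c1 was lower in all DKO than in all control libraries at CT4, at a log2 difference of -0.21 ± 0.11. Esrra, Esrrb and Esrrg, regulators of mitochondrial and energy metabolism genes, included one without overlap, Esrrb at CT4, at -0.53 ± 0.31. Of 10 estrogen-related receptor targets, Vegfa alone was called, lower at CT16 in control with a log2 difference of -0.29 ± 0.07. In that comparison 2.08% of all genes were called lower. Nr6a1 was at 12.9, 12.9 and 12.9 CPM in control at CT4 and at 8.98 to 10.9 CPM at CT16, without overlap, but its log2 difference of -0.35 ± 0.10 did not pass (edgeR adjusted p = 0.0557). It passed in 5 of 17 other settings, among them DESeq2 (adjusted p = 0.0194) and voom (0.0175). The sum of 12 oligodendrocyte markers in the fourth DKO library at CT16, the highest of that group in Nr6a1 at 13.2 CPM, was 21035 CPM beside 4089 to 9584 CPM in the others, and its part was not tested.

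Over all 31 receptors, loss of both REV-ERBs gave no called difference at either time. At CT4, 0 of 31 were called against 1.28% of all tested genes (0.574% higher and 0.71% lower). At CT16, 0 of 31 were called against 4.66% (2.83% higher and 1.83% lower). At an unadjusted p under 0.05 there were 4 at CT4 and 8 at CT16, beside 14.8% and 20% of all genes. DESeq2 called 1 at each time, Rarg at CT4 and Rara at CT16, beside 570 and 1258 of all genes. Voom called Rarg at CT4 and 0 at CT16, beside 849 and 1182 of all genes. Libraries did not overlap for 11 receptors at CT4 (25.4% of all genes) and for 2 at CT16, Rara and Rarg (6.97%). Median log2 differences were 0.04 and -0.04, beside -0.00 and 0.00 over all genes. Of the 24 receptors above 1 RPKM, 21 at CT4 and 22 at CT16 had a 95% interval within a 2-fold change in either direction. Rxrg at CT4 and Nr5a1 and Esr1 at both times did not, and a 2-fold change of these lies inside their intervals.

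**Figure D5:**
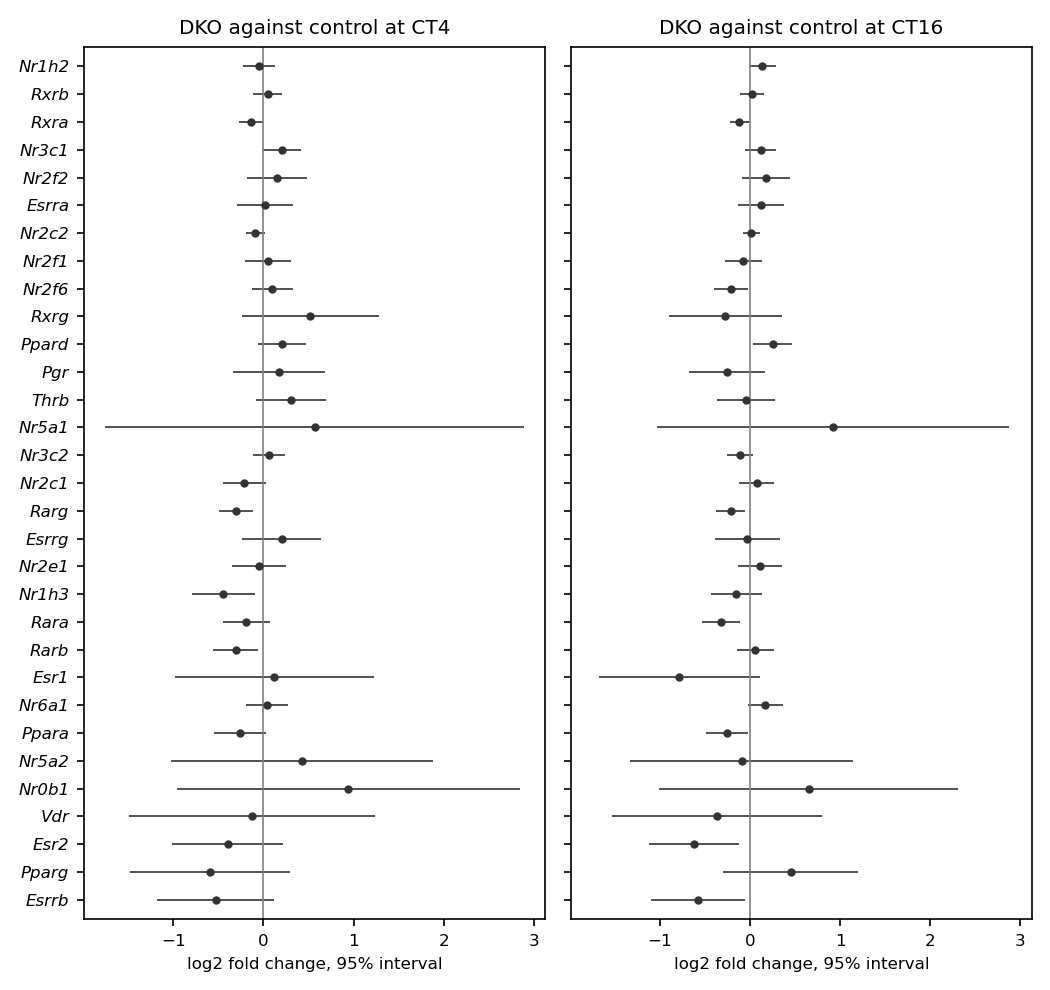
Log2 difference between DKO and control for the 31 receptors at CT4 and at CT16, with bars for the 95% interval. Most intervals are narrow and include 0, those of Nr5a1, Nr0b1, Nr5a2, Vdr and Esr1 are wide, and no receptor was called at either time.

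Over time in DKO, 0 of 31 receptors were called, against 1.8% of all tested genes (1.29% higher and 0.509% lower). At an unadjusted p under 0.05 there were 7 (18.6% of all genes), and DESeq2 called 1, Nr3c2, beside 822 of all genes. Without DKO CT16 replicate 3, 8 receptors were called, beside 1461 of 16824 tested genes. They were Nr0b1, Nr3c1, Nr3c2, Nr5a1, Nr5a2, Rxrg, Thrb and Vdr, all lower at CT16. Libraries of the times did not overlap for 3 receptors, Rarg, Rxrg and Nr3c2 (14.7% of all genes), and in control for 7 (15.8%). In the interaction, 0 of 31 were called against 0.0118% of all genes, with 2 at an unadjusted p under 0.05 (15.1%), Rarb and Nr2f6. DESeq2 called 0 in the interaction. Nr0b1 and Thrb were called in it without the 3 libraries, beside 423 of 16967 tested genes. Leaving these out also gave 1 call, lower at CT16 in DKO, on each of the lists of retinoic acid, liver X and vitamin D receptor targets, retinoid handling, thyroid hormone handling and steroid and oxysterol handling, which had none with all libraries. Over the same comparison 2 PPAR targets were then called higher and 1 lower, and 2 estrogen and progesterone receptor targets were called higher. Without the 3 libraries 1184 of 16967 tested genes were called over time in DKO. Between genotypes at CT16, 1 vitamin D receptor target and 1 gene of steroid and oxysterol handling were then called lower, beside 419 genes in total. In the interaction 1 vitamin D receptor target and 1 coactivator gene were called.

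Coregulators, through which the receptors act on transcription, gave 1 call on each list. Of 12 coactivator genes, Prmt1, an arginine methyltransferase, was called once, higher at CT16 in control by 0.22 ± 0.06, and this call was lost without the 3 libraries. Of 11 corepressor genes, Hr was called in the same comparison, as given above with Thrb. Both calls stand beside 2.13% of all genes called higher over time in control.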

How the data were processed

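Total RNA of pooled SCN punches was sequenced in 15 libraries. The authors deposited a table of raw counts, not normalized, with exonic lengths in bases. STAR, featureCounts, DESeq2 and the build mm10 are named in the submitters' processing notes. Their versions, the annotation and the strand setting are given in none of the sources used here. Libraries were matched to groups by their labels.

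The analysis used edgeR 4.0.16 in R 4.3.3. filterByExpr kept 16910 of 24419 genes, TMM factors were computed, and 4 group means were fitted to 15 libraries (11 residual degrees of freedom). For the 5 contrasts, edgeR's robust quasi-likelihood test was used, and genes under 0.05 after Benjamini-Hochberg adjustment over all tested genes were called. Errors of log2 differences are standard errors, and intervals are at 95%. CPM used TMM-scaled library sizes. Pathway lists left out the 31 receptors. Library pairs of a group correlated at 0.9803 to 0.9899 with a chi-square per degree of freedom of 6.619 to 127.2, so none was alike within sampling noise.

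All receptors are named; called ones, and those without overlap between genotypes, with their values. From each list reported, at most the 4 called genes of smallest p are named. A further list, of 9 nuclear receptors left out by the choice of genes, was tested, and its genes are not named here. Between genotypes 2 of the 9 were called at CT4 (1 higher and 1 lower in DKO) and 3 at CT16 (2 higher and 1 lower). Of all genes, 1.28% and 4.66% were called. The list includes the REV-ERB genes, whose loss defines the DKO mice, so these counts do not measure a response of the other receptors on it. Members and lists were chosen with earlier results of these data known, and so were the 3 libraries left out in one alternative, a choice extended to the pathway lists after the data were seen. Alternatives were upper quartile and RLE factors, voom of limma 3.58.1, DESeq2 1.42.0, 2 other filters, compared groups alone, a replicate block and each library left out. The steps were tested on simulated data.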

Additional observations from a re-analysis of the deposited data

Results flagged for a closer look

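In 62 groups of 4 or 5 libraries, 1 group for each receptor at CT16 and genotype, the highest or lowest library was compared with the rest by Dixon's test, which flags about 1 in 20 groups by chance; groups of 3 were not tested. It marked 6, of which 5 were in DKO at CT16. The third DKO library at CT16 was set apart for 3 genes, being the highest for Nr5a1 at 65.7 CPM (others 3.03 to 5.65), for Nr0b1 at 3.61 CPM (others 0.262 to 0.346) and for Vdr at 2.89 CPM (others 0.368 to 0.749). The first DKO library at CT16 was the highest for Esr1, at 34.9 CPM beside 11.5 to 14.5 CPM. The fourth was the highest for Nr6a1, at 13.2 CPM beside 10.7 to 11.0 CPM. In control at CT16, the second library was the lowest for Rxra, at 94.4 CPM beside 103 to 107 CPM.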

How the results depend on the processing

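Counts of called receptors were 0 at CT4, 0 at CT16, 2 over time in control, 0 over time in DKO and 0 in the interaction. DESeq2 gave 1, 1, 5 and 1 for the first 4 of these, and voom gave 1 at CT4, 7 over time in control and 6 over time in DKO. Upper quartile factors and the stricter filter each gave 1 over time in DKO (Nr3c2). Without the 3 libraries named above there were 1 at CT4, 0 over time in control, 6 over time in DKO and 2 in the interaction. Leaving out each library gave 0 to 0 at CT4, 0 to 1 at CT16, 0 to 4 over time in control, 0 to 8 over time in DKO and 0 to 0 in the interaction. With the replicate number as a block, 0 were called over time in control (Rarb adjusted p = 0.13, Rarg 0.0535), and no other receptor count changed. What the replicate numbers stand for is not stated. Among same-numbered pairs 2 of 19 correlated above 0.1, and 3 of 15 libraries correlated best with their own number. Such correlations cannot show whether same-numbered libraries were collected or prepared together. The cause of the changed counts was not tested. Of 2754 alternative values for 155 receptor results, 2698 stayed on their side of the threshold, 14 lost a call and 42 gained one. No called value changed direction, but 141 uncalled values, of 51 results, changed sign, among them Nr5a1 between genotypes at CT16 (0.92 to -1.36 without DKO CT16 replicate 3).

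Counts over all genes moved more. Leaving out a library gave 16 to 190 calls at CT4, beside 217 with all, 380 to 1318 at CT16, beside 788, 235 to 857 over time in control, beside 712, and 103 to 1461 over time in DKO, beside 304. At CT4 DESeq2 called 570, voom 849, the replicate block 104 and the compared groups alone 828. At CT16 these were 1258, 1182, 503 and 368, over time in control 1282, 1856, 379 and 889, and over time in DKO 822, 1381, 159 and 47. Without the 3 libraries the 4 counts were 606, 419, 609 and 1184. In the interaction 2 genes were called, beside 317 by DESeq2, 422 by voom, 423 without the 3 libraries, 6 without a filter, 1 with the replicate block and 1 to 298 without a single library. The number of receptors above the level threshold was 24, 24 with unscaled library sizes, 24 when required in every library and 30 at 1 CPM. The receptors under 1 RPKM had few counts, down to 10 in a library for Nr0b1, which limits their precision.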
